A study of Mus musculus with 9 samples.

Results

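The mitochondrial ribosomal protein genes were followed across 9 RNA-seq libraries of mouse podocytes, the epithelial cells that wrap the capillaries of the kidney filter. Members were taken by name alone, as every symbol made of Mrpl or Mrps, a number and at most 1 further letter. This gave 76 genes of the 23309 symbols in the table, 47 named for the large subunit (Mrpl) and 29 for the small subunit (Mrps). The RNA came from wildtype mice of 7 to 8 weeks that carried the mTmG reporter and Nphs2cre, a Cre driven from the promoter of the podocin gene, so that recombined cells turn green. GFP-positive podocytes were isolated from these animals, and the reporter and the Cre were shared by all groups, controls included. A group of 3 libraries came from mice given PBS, 3 from mice 9 days after an injection that the labels write as ADR, and 3 from mice 14 days after that injection. Whether each library is its own animal is not stated, and the p-values below therefore reflect no more than the spread from library to library, which may be technical.

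Mitochondria keep their own ribosome, which translates the few messages of the mitochondrial genome, all for membrane subunits of the respiratory chain and ATP synthase. Its RNAs are made inside the organelle, whereas all of its proteins are encoded in the nucleus, translated in the cytosol and imported. Many of these proteins descend from those of the bacterial ribosome, and others exist only in mitochondria. Podocytes in a healthy kidney do not divide and hold many mitochondria in the cell body, and mutations in several mitochondrial genes are known to damage the glomerulus.

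Before any result, 3 properties of the libraries bear on the values. To begin with, the lowest values gave a depth relative to the second PBS library of 0.239, 0.460 and 0.569 in the day 14 libraries, against 0.786 to 1.09 in the others, so the day 14 values rest on the fewest reads. Moreover, markers of other kidney cells were high in 2 libraries. In day 14 replicate 1 all 9 endothelial markers and all 7 distal tubule and duct markers exceeded 4 times the highest PBS library, summing to 501 and 12280 FPKM, and the 8 podocyte markers summed to 2683 FPKM against 8387 to 11337 FPKM with PBS. In day 9 replicate 3 the same endothelial markers summed to 1680 FPKM and the podocyte markers to 9390 FPKM. In day 14 replicates 2 and 3 the endothelial sums were 0.834 and 11.9 FPKM, against 2.02 to 4.38 FPKM with PBS, with 0 and 2 of the 9 markers over 4 times the highest PBS library, and the distal tubule sums were 3.94 and 2.51 FPKM. In addition, 4 Y-linked genes summed to 53.6 to 70.5 FPKM in 5 libraries and to at most 1.06 FPKM in 4 (day 9 replicates 2 and 3, day 14 replicates 1 and 3), so PBS was made of libraries with these transcripts only. The podocyte markers summed to 9058 and 11622 FPKM in day 14 replicates 2 and 3, a sum that the most abundant markers weigh on most. With changes and calls as defined below, the 8 podocyte markers had a median log2 change of -1.22 from PBS to day 14. Of these 8, 3 were called lower and 0 higher, beside 10.7% and 6.32% of all genes tested. In bulk RNA, fewer podocytes in a library and less RNA per podocyte cannot be told apart.

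With PBS the mitoribosomal genes spanned levels from 0.147 FPKM (Mrpl24) to 711 FPKM (Mrpl20), where FPKM is the number of fragments corrected for length of the transcript and for sequencing depth. The median was 23.2 FPKM for the large and 12.1 FPKM for the small subunit, although the proteins are built into the ribosome in about equal numbers. Of the 76 genes, 10 had a PBS mean under 1 FPKM and 16 a mean over 100 FPKM. The 10 most abundant members held 62.9% of the summed PBS level of all 76. Mrpl20 was at 719, 720.0 and 693 FPKM in the PBS libraries, and Mrpl42 at 750.5, 607 and 756 FPKM. Mrpl53, a protein at the base of the stalk, followed at 441, 325 and 358 FPKM. Mrpl20 and Mrpl42 overlapped across their PBS libraries, while Mrpl53 was below both in all 3. In the small subunit the highest were Mrps6 at 252, 212 and 274 FPKM, Mrps18b at 231, 208 and 176 FPKM and Mrps34, whose loss causes a human mitochondrial disease, at 196, 180.4 and 168 FPKM. Neighbours in that order overlapped.

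A gene was tested when it reached 1 FPKM in at least 3 of the 9 libraries, which 9788 genes did, among them 42 large and 28 small subunit members. The lowest members tested were Mrpl34, Mrpl14 and Mrpl27 in the large subunit (PBS means 0.671, 1.24 and 1.74 FPKM) and Mrps28, Mrps15 and Mrps33 in the small subunit (0.634, 0.853 and 0.972 FPKM). The 6 members left out were Mrpl10, Mrpl12, Mrpl15, Mrpl24, Mrpl55 and Mrps11. Among these stand Mrpl10 and Mrpl12, which form the stalk that recruits translation factors. Mrpl10 was listed at 0.616, 0.762 and 0.896 FPKM with PBS, at 0.445, 1.19 and 0.831 FPKM on day 9 and at 0.783, 0.492 and 0.886 FPKM on day 14. Mrpl12 was at 0.689, 0.374 and 0.346 FPKM with PBS and 0.416, 0.788 and 0.589 FPKM on day 9, and at 6.45, 0.914 and 0.164 FPKM on day 14, where its highest value lay in the library with markers of other kidney cells. Mrpl15 and Mrpl24 stayed under 1 FPKM in every library except day 14 replicate 1, where Mrpl15 was at 1.36 FPKM. Mrpl24 in day 14 replicate 3 was the only value of the 76 genes listed at 0.

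**Figure D1:**
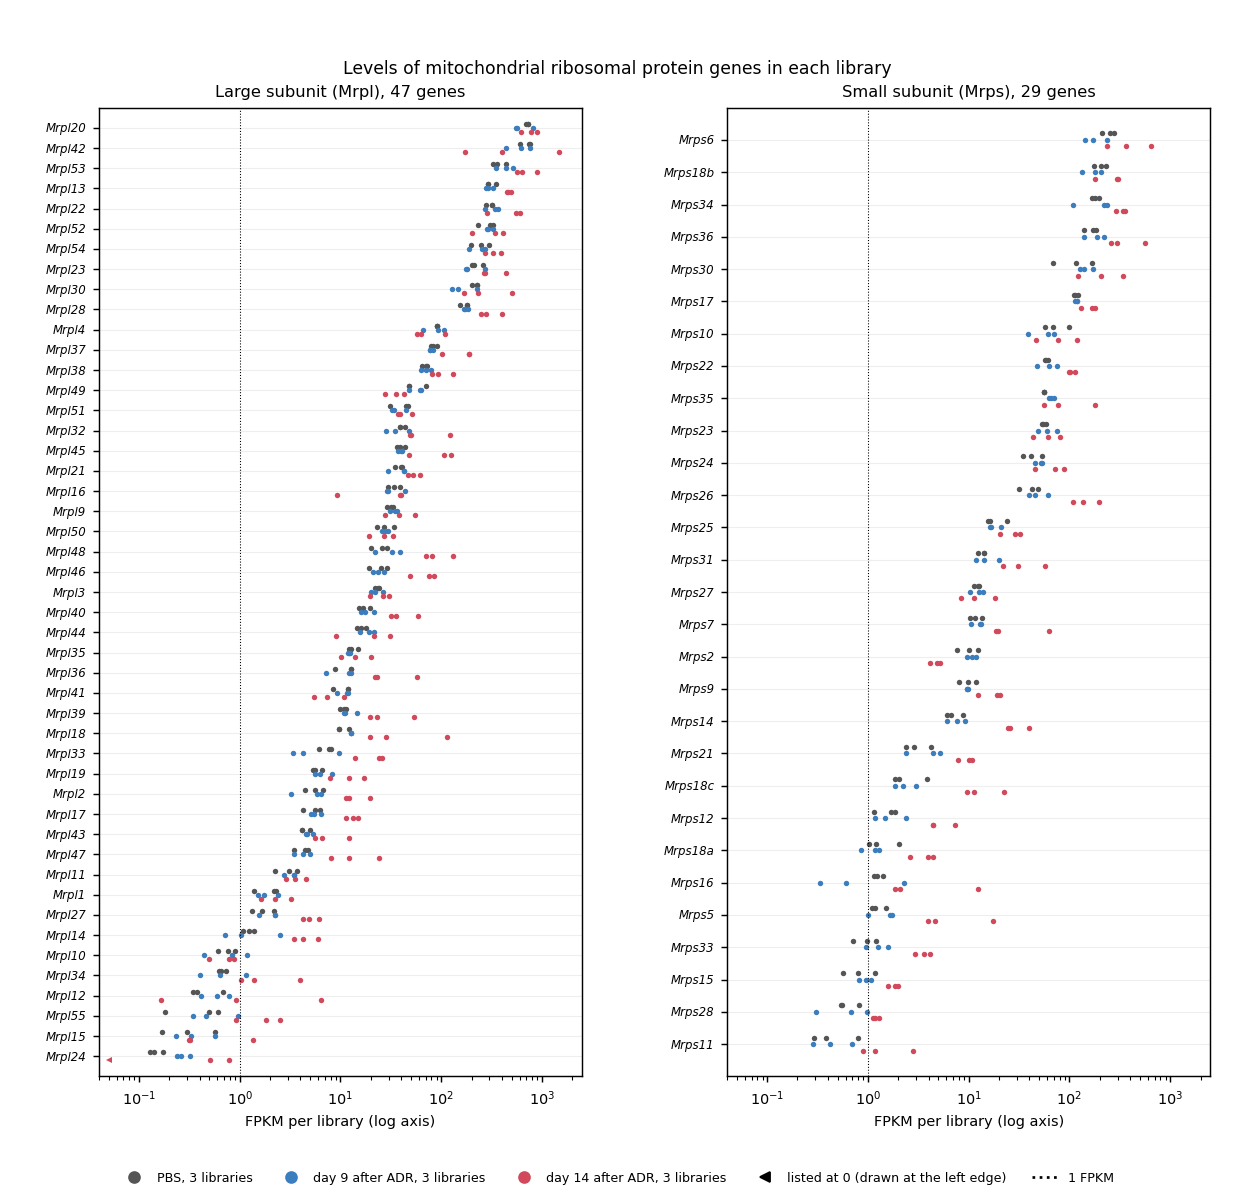
FPKM of every member in each of the 9 libraries on a log axis, ordered by the PBS mean within the large (left) and the small subunit (right); points are single libraries, and the dotted line is 1 FPKM. Levels with PBS run from 0.147 to 711 FPKM, and most red day 14 points lie to the right of the grey PBS points, with Mrps2 and Mrpl49 among those to the left.

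Changes are given as log2 differences of FPKM + 1 set against the median over the 9788 genes tested, since that median moved by -0.15 from PBS to day 14 and by -0.22 from day 9 to day 14. The pseudocount of 1 makes the change of low genes look smaller than it is. A gene was called when the p from limma, adjusted by Benjamini-Hochberg over all 9788 genes, was under 0.05. Each p tests the change before that median was subtracted, not the printed change. From PBS to day 14 the change tested was -0.92 for Mrps2, printed as -0.77, and 1.84 for Mrpl48, printed as 1.99.

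On day 9 no member was called against PBS. The large subunit had a median log2 change of -0.04 and the small subunit of 0.00, with 16 of 42 and 16 of 28 tested members above the median gene. The limma test called 0 of 70 members, with 0 at an unadjusted p under 0.05, and it called 0% of all genes higher and 0% lower, where 304 genes had an unadjusted p under 0.05. All 3 day 9 libraries were above all 3 PBS libraries in 2 of 47 large subunit members (Mrpl18, Mrpl24) and 1 of 29 small subunit members (Mrps35), beside 6.77% of all genes tested. None of the 76 was below in all 3, beside 6.63% of all genes tested. Among tested members 1 of 42 large and 1 of 28 small subunit genes were above. Mrpl18 was at 12.2, 9.68 and 9.63 FPKM with PBS and 12.8, 12.8 and 12.6 FPKM on day 9, and Mrps35 at 55.5, 56.2 and 55.6 FPKM and 65, 70.4 and 63 FPKM. The 3 day 9 libraries were not equally high. Day 9 replicate 2 was the highest of its group in 34 of 70 members and replicate 3, which carried the endothelial markers, in 9.

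By day 14 genes of both subunits stood above PBS, and only Mrps2 was called lower. In the large subunit 12 of 42 tested members rose and 0 fell, with a median log2 change of 0.73 and 37 of 42 above the median gene. In the small subunit 11 of 28 rose and 1 fell, with a median of 0.99 and 27 of 28 above the median gene. Of all genes tested, 6.32% were called higher and 10.7% lower. Counted over all members, tested or not, the 3 day 14 libraries lay above the 3 PBS libraries in 25 of 47 large subunit genes and below in 1, and above in 19 of 29 small subunit genes and below in 1. The same separation held for 15.6% of all genes tested upward and 23.8% downward. Among tested members it held upward in 24 of 42 large and 18 of 28 small subunit genes, and downward in 1 of each. Taking each day 14 library by itself, 34, 37 and 32 of the 47 large subunit genes and 24, 25 and 24 of the 29 small subunit genes were above all PBS libraries in replicates 1, 2 and 3. The part of other kidney cells in these counts was not tested.

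How many genes were called varied with the libraries and terms used. Of the 24 calls, 0 were left without PBS replicate 2 (30 members then had an unadjusted p under 0.05, and limma called no gene of all 9788), 1 without PBS replicate 3, 13 without PBS replicate 1, 13 without day 9 replicate 1, 13 without day 9 replicate 2 and 13 without day 14 replicate 2. Without day 14 replicate 1, the library with markers of many other cells, 13 large and 9 small subunit genes were called higher and 1 lower, with medians of 0.75 and 0.87. With a term for Y-linked transcripts 0 members and 0% of all genes tested were called, with 32 members at an unadjusted p under 0.05 and medians of 0.76 and 1.07. With the group fitted only against PBS 6 members were called, beside 4.80% of all genes tested. Every gene called in the main comparison kept its sign in all 22 fits.

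The central protuberance, the crown of the large subunit, held 3 of these genes. Mrpl48 was at 29.2, 19.9 and 25.7 FPKM with PBS, at 39, 32.4 and 22.2 FPKM on day 9 and at 130.3, 80.9 and 71.4 FPKM on day 14. The day 14 libraries were all above the other 6, and the change from PBS was 1.99, SE 0.31, adjusted p = 0.0112 by limma, the largest of the called large subunit genes. Mrpl46 went from 29.2, 19 and 25.1 FPKM with PBS to 84, 49.4 and 76 FPKM on day 14, with 21.3, 27.2 and 23.6 FPKM on day 9 in between (1.61, SE 0.27, adjusted p = 0.0131, limma). Its day 14 libraries did not overlap either earlier group, and replicate 3 was nearly as high as replicate 1. Mrpl40 had means of 17.3 ± 2.28 FPKM with PBS and 42 ± 14.3 FPKM on day 14 (SD, n = 3 libraries), a log2 change of 1.34. Mrpl38, also of this region, had 64.7, 71.5 and 72.2 FPKM with PBS and 130.3, 80.2 and 92.6 FPKM on day 14, and its change of 0.65 was not called although the groups did not overlap.

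Some genes of proteins around the mouth of the exit tunnel, where the new chain leaves the ribosome, are described here, and not all of them. Of Mrpl17, Mrpl45, Mrpl23 and Mrpl44, only Mrpl17 was called. Mrpl17 was at 5.6, 4.28 and 6.23 FPKM with PBS and 6.4, 5.11 and 5.44 FPKM on day 9, and at 13.5, 11.2 and 14.8 FPKM on day 14 (1.30, SE 0.24, adjusted p = 0.018, limma). The 3 day 14 libraries were close together, between 11.2 and 14.8 FPKM, and all above the rest. Mrpl45, which faces the inner membrane, was at 39, 36.3 and 43.6 FPKM with PBS and 106, 47.7 and 125 FPKM on day 14, and just missed the threshold (1.25, SE 0.34, adjusted p = 0.0545, limma). Mrpl23 was at 258, 201 and 214 FPKM and 264, 269.6 and 439 FPKM, a change of 0.64 that was not called. Mrpl44, a ribonuclease III-like protein whose mutation causes a human cardiomyopathy, was at 15.9, 14.7 and 17.9 FPKM with PBS and 30.8, 21.7 and 9.03 FPKM on day 14, where the libraries lay on both sides of PBS.

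At the core and the interface of the subunit the called genes were mostly of low level. Mrpl14, at the face that meets the small subunit, rose from 1.4, 1.25 and 1.07 FPKM with PBS to 5.96, 4.26 and 3.44 FPKM on day 14 (1.44, SE 0.31, adjusted p = 0.0266, limma). Mrpl2, near the peptidyl transferase centre, was at 6.67, 5.56 and 4.46 FPKM and 19.5, 12.2 and 11.4 FPKM. Mrpl27, whose bacterial relative reaches towards the tRNA in the peptidyl site, was at 2.22, 1.33 and 1.68 FPKM and 6.09, 4.91 and 4.25 FPKM. In each of these 3 genes every day 14 library was above every PBS library, with log2 changes of 1.44, 1.35 and 1.30. The other called large subunit genes, not sorted here by their place in the subunit, were Mrpl47, Mrpl39, Mrpl33, Mrpl36 and Mrpl28. Their log2 changes lay between 0.97 (Mrpl28) and 1.62 (Mrpl47). Mrpl28 was the most abundant of the 12, at 179, 154 and 179.8 FPKM with PBS and 280.4, 247 and 400.1 FPKM on day 14.

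Several large subunit genes did not pass. Mrpl18, whose bacterial relative sits in the central protuberance, had a change as large as that of Mrpl48 (1.99, SE 0.55, adjusted p = 0.0504, limma), with day 14 libraries at 114, 28.5 and 19.5 FPKM that were above PBS but far apart. The stalk genes Mrpl53 and Mrpl11 had changes of 1.02 (adjusted p = 0.0515, limma) and 0.35 (adjusted p = 0.593, limma). Mrpl3, a disease gene, was at 22.3, 24 and 23.3 FPKM with PBS and 26.2, 30.2 and 19.6 FPKM on day 14, with overlapping groups. The 2 most abundant members were not called either: Mrpl20 had 619, 894 and 774 FPKM on day 14 and Mrpl42 had 174, 403 and 1478 FPKM, the latter on both sides of all 3 PBS libraries. Mrpl49 was the 1 large subunit gene below PBS in all 3 day 14 libraries, at 48.3, 47.9 and 70.1 FPKM with PBS and 27.9, 35.7 and 42.9 FPKM on day 14, and its change of -0.48 was not called (adjusted p = 0.115, limma).

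**Figure D2:**
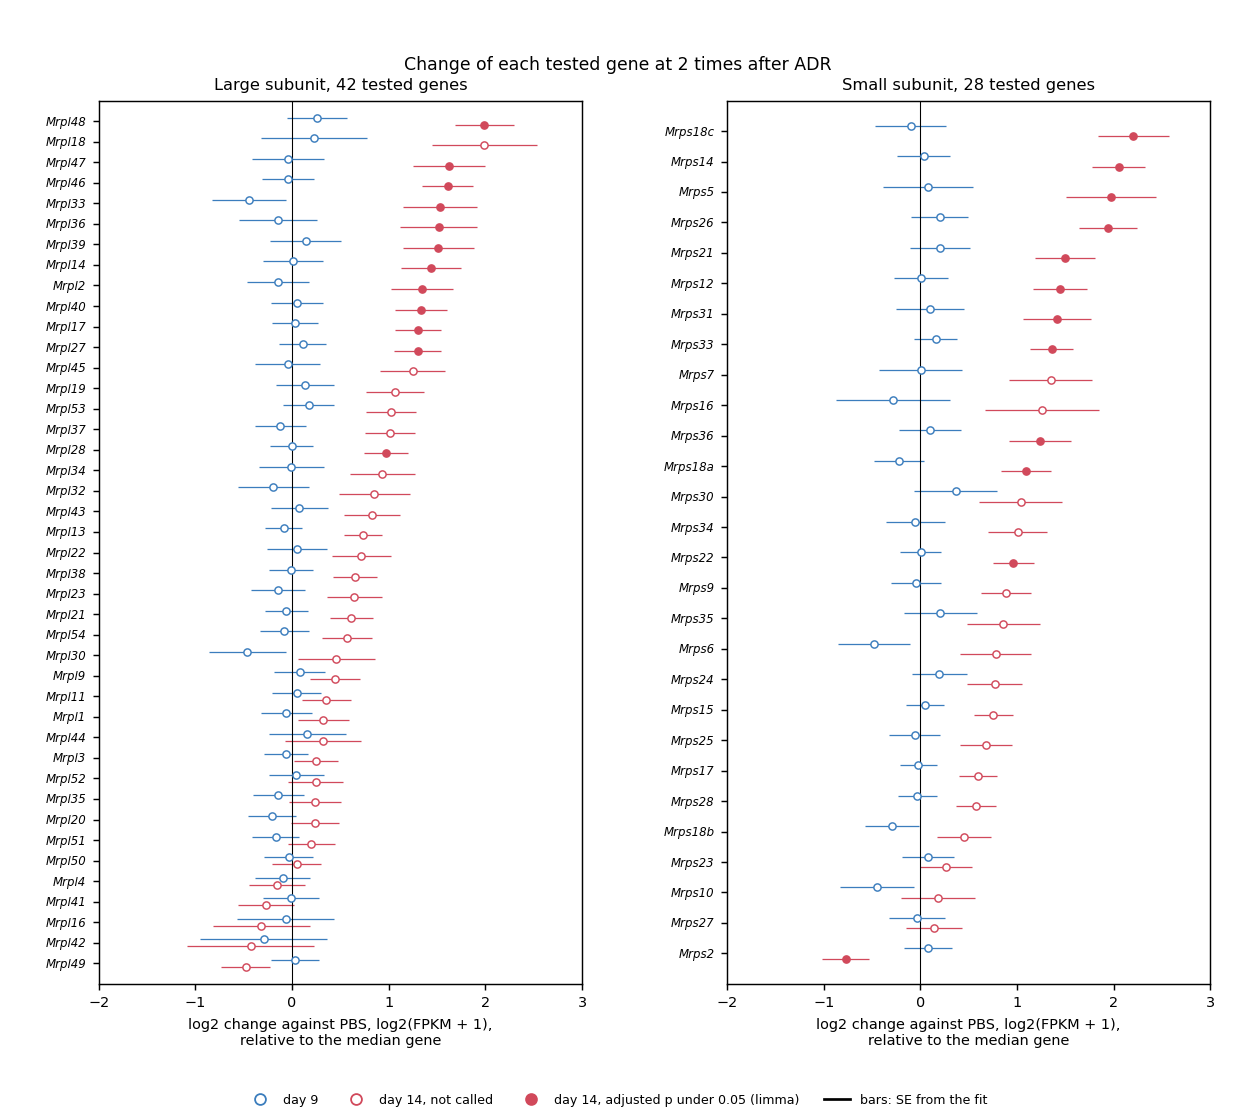
Log2 change against PBS of each tested member on day 9 (blue) and day 14 (red), with the SE of the limma fit, relative to the median of all genes tested; filled points passed an adjusted p of 0.05. Day 9 points lie around 0 in both subunits, and on day 14 they reach 1.99 in the large and 2.20 in the small subunit, with Mrps2 as the filled point on the negative side.

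In the small subunit the 3 largest changes were in genes with bacterial relatives, Mrps18c, Mrps14 and Mrps5. Mrps18c was at 3.88, 1.87 and 2.05 FPKM with PBS, at 2.23, 3.02 and 1.88 FPKM on day 9 and at 22.5, 9.65 and 11.3 FPKM on day 14 (2.20, SE 0.36, adjusted p = 0.0125, limma). Mrps14 was at 8.79, 6.13 and 6.63 FPKM with PBS, 9.1, 7.63 and 6.05 FPKM on day 9 and 39.5, 24.8 and 25.8 FPKM on day 14 (2.05, SE 0.27, adjusted p = 0.00994, limma), the smallest adjusted p of the members. In both genes the lowest day 14 library was more than 2 times the highest of the other 6. Mrps12, which lies at the decoding centre, was at 1.87, 1.16 and 1.68 FPKM with PBS and 7.28, 4.41 and 4.46 FPKM on day 14, with a change of 1.44. Mrps5, at the entry of the message, went from 1.17, 1.53 and 1.1 FPKM to 17.5, 4.61 and 3.93 FPKM, where replicate 1 alone was over 10 FPKM. Mrps21 had means of 3.18 ± 0.975 FPKM with PBS and 9.56 ± 1.52 FPKM on day 14 (SD, n = 3 libraries).

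Genes of small subunit proteins without a bacterial relative were also among those called. Mrps26 was at 49.2, 42.8 and 31.5 FPKM with PBS, 61.8, 45.1 and 39.3 FPKM on day 9 and 197, 136 and 109 FPKM on day 14 (1.94, SE 0.30, adjusted p = 0.0109, limma), and the groups before and on day 14 did not overlap. Mrps33 was at 1.21, 0.715 and 0.988 FPKM with PBS and 3.61, 2.95 and 4.15 FPKM on day 14. Mrps22, mutated in a human mitochondrial disease, was at 60.9, 58.9 and 57.3 FPKM with PBS and 101, 114 and 99.6 FPKM on day 14, a spread of under 15 FPKM within each of these groups and a change of 0.96. Mrps31 had a change of 1.41, and its day 14 libraries ranged from 22 to 57.7 FPKM. Mrps34, also a disease gene, was above PBS in all 3 day 14 libraries (343, 358 and 291 FPKM) and was not called (adjusted p = 0.085, limma).

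Mrps2, a protein of the junction of head and body whose mutation causes a human disease of mitochondrial translation, was the exception. It was at 7.59, 10.1 and 12.3 FPKM with PBS, at 10.7, 9.67 and 11.9 FPKM on day 9 and at 5.2, 4.87 and 4.14 FPKM on day 14, and fell (-0.77, SE 0.25, adjusted p = 0.0359, limma). All 3 day 14 libraries were below all 6 others. Day 14 replicate 3 gave the lowest value. Mrps7 and Mrps16, also disease genes, were not called: Mrps7 was at 13.7, 11.5 and 10.4 FPKM with PBS and 62.6, 18.6 and 19.5 FPKM on day 14 (adjusted p = 0.0856, limma), and Mrps16 at 1.42, 1.15 and 1.25 FPKM and 12.5, 2.09 and 1.86 FPKM (adjusted p = 0.215, limma). In both, replicate 1 was more than 3 times the other day 14 libraries.

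Some members are not what their symbol says. Mrps18a and Mrps30 are known as large subunit proteins, and Mrps36 as a part of the 2-oxoglutarate dehydrogenase complex. Mrps18a rose, from 2.04, 1.21 and 1.02 FPKM with PBS to 3.97, 4.47 and 2.6 FPKM on day 14, and Mrps36 rose from 173, 140.1 and 182 FPKM to 557, 299 and 259 FPKM (changes 1.09 and 1.24). Mrps30 was at 169, 117 and 68.2 FPKM and 123, 205 and 344 FPKM and was not called. Among the paralogs, Mrps18c had a change of 2.20, Mrps18a of 1.09 (SE 0.26), and the far more abundant Mrps18b of 0.45 (SE 0.28) without a call. The differences between them were not tested. Among the untested, Mrpl55 was at 0.501, 0.181 and 0.615 FPKM with PBS and 2.53, 0.919 and 1.81 FPKM on day 14, and Mrps11 at 0.803, 0.29 and 0.383 FPKM and 2.78, 0.901 and 1.17 FPKM, both above PBS in all 3.

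The day 14 libraries also differed from those of day 9. Against day 9, 12 large subunit genes were called higher and 0 lower (median 0.84), and 9 small subunit genes higher and 1 lower (median 1.04), where 5.71% of all genes were called higher and 9.98% lower. The day 14 libraries lay above all day 9 libraries in 21 of 47 large and 18 of 29 small subunit genes, and below in 1 of each. Among tested members they lay above in 21 of 42 and 17 of 28, beside 13.2% of all genes tested. They lay below in 1 of each, beside 24.6% of all genes tested. Mrpl37 passed here (1.17, SE 0.26, adjusted p = 0.0424, limma) and not against PBS, and the reverse held for Mrpl39, Mrps31 and Mrps36. Mrpl33 had the largest difference of the large subunit, from 4.23, 9.58 and 3.35 FPKM on day 9 to 13.9, 26 and 24.1 FPKM on day 14. Both comparisons use the same day 14 libraries, so they are not independent. Of the 22 calls, 3 were left without day 9 replicate 3, 5 without day 9 replicate 1, 9 without day 9 replicate 2 or PBS replicate 2, and 13 without day 14 replicate 2. In the same order, 3.89%, 5.08%, 6.39%, 7.45% and 12.4% of all genes tested were called, against 15.7% in the main fit. Without both libraries that carried markers of other kidney cells, 8 members were called, beside 13.1% of all genes tested. The medians were then 0.64 in the large and 0.75 in the small subunit. Mrps14, Mrps18c and Mrpl46 were called in all 9 fits that each left out 1 library.

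The libraries of a group were not equally high. Relative to the PBS mean, the median of the large subunit was 0.87, 0.68 and 0.72 in day 14 replicates 1, 2 and 3, and that of the small subunit 1.15, 0.98 and 0.81. Of 70 tested members, 38 were highest in replicate 1, 15 in replicate 2 and 17 in replicate 3. The library with markers of other kidney cells and the lowest depth therefore had the highest medians, and its part in the size of the change was not tested beyond leaving it out. Summed over the subunit, the large subunit genes made up 0.671% to 0.766% of the column total with PBS and 0.698%, 0.835% and 0.956% on day 14. The small subunit genes made up 0.233% to 0.255% with PBS and 0.422%, 0.336% and 0.313% on day 14.

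Less abundant members had the larger changes, by a margin that shrank when libraries with markers of other kidney cells were left out. Split at the median of the 9-library mean (26.6 FPKM), the lower 35 members had 17 calls higher and 1 lower against PBS with a median of 1.30, and the upper 35 had 6 higher and 0 lower with a median of 0.65. The rank correlation of the PBS level with the difference between day 14 and day 9, which does not use the PBS values, was -0.36 over the 70 members and -0.04 over all genes tested, and it was -0.39 over the cytosolic ribosomal protein genes and -0.34 over the genes for complex I. These points share libraries and depth, and no p is given. Without day 14 replicate 1 the medians of the lower and upper members against PBS were 1.06 and 0.71. Against day 9 they were 1.30 and 0.71 with all libraries. Without both libraries with markers of other kidney cells they were 0.82 and 0.63. The filter could have admitted a low member through its day 14 values alone. Of the 70, 67 reached 1 FPKM in at least 3 of the 6 PBS and day 9 libraries, and among these (a subset chosen after seeing the data) the calls against PBS were the same in number, 12 and 11 higher and 1 lower, with medians of 0.72 and 1.02.

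**Figure D3:**
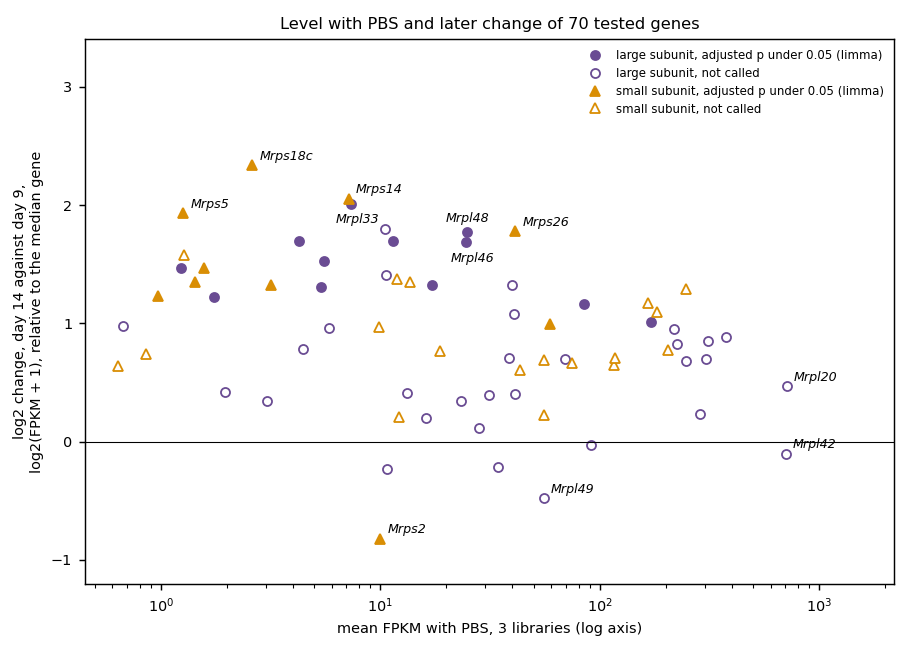
PBS mean of each of the 70 tested members (FPKM, log axis) against its log2 change from day 9 to day 14; circles are large and triangles small subunit genes, and filled symbols passed an adjusted p of 0.05. Changes above 1.5 lie at PBS means under 50 FPKM, and Mrpl20 and Mrpl42, the 2 most abundant, had changes of 0.47 and -0.10.

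Transcript length moved with the change across all genes. The members were short, with a median length of 1284 bases against 2914 bases over all genes tested, and the rank correlation of length with the day 14 change from PBS was -0.36 over all genes. Within the members it was 0.00. When a trend with length and GC content was removed from every library, the medians were 0.35 for the large and 0.51 for the small subunit, and 7 members were called higher and 0 lower: Mrpl17, Mrpl19, Mrpl47, Mrpl48, Mrps5, Mrps14 and Mrps26. Mrps2 was then called lower against day 9 (adjusted p = 0.0494, limma). Against PBS its change was -1.08 and just missed the threshold (adjusted p = 0.0515, limma). Under that setting 4.60% of all genes were called against PBS, in place of 17.1%.

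Genes with and without a bacterial relative were called in both subunits. In the large subunit 8 of 25 tested genes with a bacterial relative and 4 of 17 mitochondria-specific ones rose, and in the small subunit 5 of 15, with 1 lower, and 4 of 10. Their medians were 0.73 and 0.65, and 0.89 and 0.91. A further 7 proteins of the mitoribosome carry other symbols and were tested as a list of their own. Of these, 4 rose against PBS and 0 fell (median 0.96). Aurkaip1, a small subunit protein first described as a partner of Aurora kinase A, was at 30.8, 22.9 and 27.7 FPKM with PBS, 35.7, 28.4 and 25.9 FPKM on day 9 and 148, 77.3 and 91.8 FPKM on day 14 (2.03, SE 0.28, adjusted p = 0.00994, limma). Gadd45gip1, at the exit tunnel, went from 2.37, 1.91 and 2.44 FPKM to 18.2, 6.08 and 5.32 FPKM, and Chchd1 from 1.81, 1.34 and 1.73 FPKM to 6.7, 2.9 and 4.23 FPKM. Mrp63 was the fourth, with a change of 0.96. Ict1, a peptidyl-tRNA hydrolase built into the large subunit, missed the threshold (0.86, SE 0.21, adjusted p = 0.0504, limma), and Ptcd3 and Dap3 were not called.

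A few of the genes that build and serve the mitoribosome were called, in both directions. Of 17 tested genes of assembly and ribosomal RNA modification, 2 rose and 1 fell (median 0.16), which is 11.8% and 5.88% beside the 6.32% and 10.7% of all genes tested. Mterfd1, which acts in ribosome assembly, was at 13.2, 12.7 and 10.7 FPKM with PBS and 44.1, 26.7 and 28.8 FPKM on day 14. Malsu1, known to bind the Mrpl14 protein and keep the subunits apart, was at 0.442, 0.899 and 0.332 FPKM and 1.5, 3.12 and 1.9 FPKM. Dhx30, an RNA helicase of assembly, fell from 22.2, 34 and 36.2 FPKM to 8.36, 6.19 and 7.57 FPKM (-1.76, SE 0.28, adjusted p = 0.00994, limma), with day 14 libraries below all others. Of 14 translation factors and related genes, Mtrf1 (a release factor homologue) and Guf1 (an elongation factor 4 homologue) rose, with changes of 1.35 and 1.36. Oxa1l, the insertase that receives new chains from the ribosome, fell from 19, 25 and 22.9 FPKM to 15, 7.85 and 5.33 FPKM (change -1.12).

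The 16 mitochondrial aminoacyl-tRNA synthetases tested, which charge the tRNAs used by this ribosome, had a median change of -0.42 from PBS to day 14. By limma 0 were called, with 5 at an unadjusted p under 0.05. Against day 9 the genes Wars2 and Hars2 were called lower (12.5%, beside 9.98% of all genes tested). Without day 14 replicate 1 the median from PBS was -0.31, with 0 called higher and 2 lower, where 18.8% of all genes were called in either direction. The synthetase transcripts were longer than those of the ribosomal proteins (median 3282 bases), and with the trend in length and GC content removed their median was -0.16. The assembly and translation factor medians were then -0.05 and -0.06, beside the 0.35 and 0.51 of the ribosomal proteins. Among 12 genes of mitochondrial DNA upkeep and transcription, 1 rose (Tefm, a transcription elongation factor) and 1 fell (Polg2, a subunit of the DNA polymerase), or 8.33% each way, near the 6.32% and 10.7% of all genes. Of 9 regulators of mitochondrial gene programmes, 0 rose and 3 fell (33.3%, beside 10.7% of all genes): the coactivator gene Pprc1 from 6.18, 7.32 and 7.8 FPKM to 0.981, 0.99 and 0.983 FPKM, the nuclear receptor gene Esrra from 33.3, 21.1 and 18.4 FPKM to 10.4, 8.98 and 12 FPKM, and Ppargc1b from 1.74, 1.74 and 2.24 FPKM to 0.843, 0.701 and 0.443 FPKM. The differences between these lists and the ribosomal proteins were not tested.

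**Figure D4:**
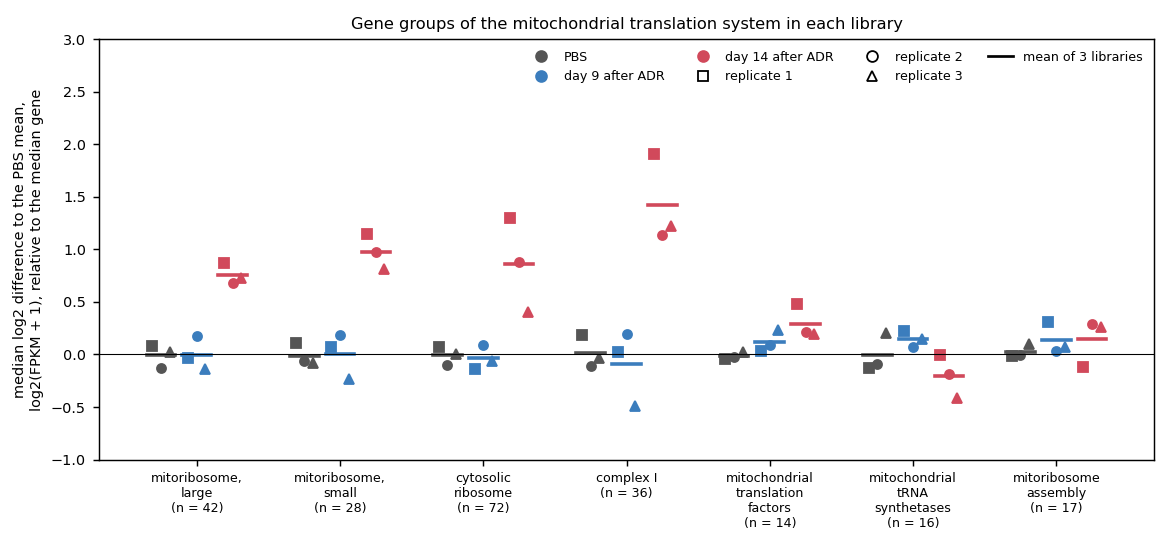
Median log2 difference from the PBS mean in each library for the 2 mitoribosomal subunits and 5 other gene lists, relative to the median of all genes tested; each point is a library, its shape the replicate number, and bars are means of 3 libraries. On day 14 the subunit medians lie between 0.68 and 1.15, and those of the mitochondrial tRNA synthetases between -0.41 and -0.01.

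A pair of nuclear-encoded sets that work in other machines also held more genes called higher than lower. Of 72 tested cytosolic ribosomal protein genes 15 (20.8%) rose and 1 fell (median 0.79), and of 36 genes for complex I, the first enzyme of the respiratory chain, 18 (50%) rose and 0 fell (median 1.50), beside 32.9% of the 70 members. These shares were not tested against each other. Their transcripts were short too (medians 910 and 944.5 bases), and with the trend in length and GC content removed the medians were 0.14 and 0.69. In day 14 replicate 1 the median of complex I was 1.91 and in replicates 2 and 3 it was 1.14 and 1.22. The replicates of the mitoribosomal subunits were closer to one another than this. Of genes outside the list, Ndufs6, a complex I gene, had the pattern most like the median of the members over the 9 libraries (Pearson r = 0.996), followed by Fkbp3, Hsd17b10, Pop7 and Banf1. Ndufs6 was at 383, 259 and 348 FPKM with PBS, 391, 419 and 268 FPKM on day 9 and 1595, 999 and 1022 FPKM on day 14. It overlaps Mrpl36 on the other strand, and the use of strand in counting was not found in the labels. Of the 70 tested members, 23 overlapped a gene on the other strand, and 7 of these were called against PBS (all higher) beside 17 of the other 47. Across the libraries Mrps12 followed the median of the other members most closely (r = 0.99, n = 9 libraries), and Mrps2 (-0.89), Mrpl49 (-0.85) and Mrpl41 (-0.69) ran against it.

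Genes of mitochondrial proteins often share a start region with a neighbour read in the opposite direction. In RefSeq (GRCm38.p6, a later build than the mm9 of the files, used for sequence only), 67 members had a promoter entry, and 22 of them (32.8%) had another gene starting within 500 bases on the opposite strand, against 19.0% of the tested genes and 10.9% of all genes. Leaving out partners that are members themselves, 16 were tested, with a median change of 0.30 from PBS to day 14. Of these, 2 rose (Ndufb5 and Ptcd2) and 3 fell (Klc4, Gga3 and Tmem63b), beside 6.32% and 10.7% of all genes tested. Mrpl46 and Mrps11 form such a pair within the mitoribosome, with 41 bases between their starts, and both were above PBS in all 3 day 14 libraries. Mrps12 shares 146 bases with Sars2, the mitochondrial seryl-tRNA synthetase gene, and Mrps18c shares 158 bases with Helq, a DNA helicase gene. These stretches are shown because a member in each was above PBS on day 14 and, in the pairs with Sars2 and Helq, the partner was not called. Sars2 was at 14.6, 14.6 and 19 FPKM with PBS and 16.8, 10.4 and 4.05 FPKM on day 14 (change -0.60, adjusted p = 0.244, limma) while Mrps12 rose by 1.44. Helq was at 2.12, 3.10 and 3.20 FPKM with PBS and 7.68, 3.12 and 3.46 FPKM on day 14 (change 0.67, not called) while Mrps18c rose by 2.20. Called partners of members called higher went both ways. Ndufb5, a complex I gene next to Mrpl47, had a change of 1.995 (adjusted p = 0.0438, limma). Klc4, a kinesin light chain gene next to Mrpl2, had a change of -2.30, and Tmem63b, next to Mrpl14, of -1.32. The other called partners, Ptcd2 and Gga3, stood next to Mrps27 and Mrps7, which were not called. Ndufb5, Tmem63b and Gga3 also overlap Mrpl47, Mrpl14 and Mrps7 on the other strand, and Mrps11 overlaps Mrpl46. Whether reads were shared within these pairs was not tested. The stretches between the starts, on the plus strand, with capitals for the motifs described next, are:
Mrpl46 and Mrps11 (chr7:78783090-78783130): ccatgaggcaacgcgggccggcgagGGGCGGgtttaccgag
Mrps12 and Sars2 (chr7:28741822-28741967): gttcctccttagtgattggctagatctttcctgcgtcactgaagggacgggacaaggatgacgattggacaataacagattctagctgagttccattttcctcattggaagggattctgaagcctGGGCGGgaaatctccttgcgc
Helq and Mrps18c (chr5:100798601-100798758): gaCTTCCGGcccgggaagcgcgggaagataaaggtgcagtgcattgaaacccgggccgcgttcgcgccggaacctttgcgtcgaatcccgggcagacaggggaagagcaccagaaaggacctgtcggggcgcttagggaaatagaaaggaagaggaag

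The promoters, 250 bases before to 50 after the start, were searched on both strands for 4 short motifs of factors known for nuclear genes of mitochondria; none of the 4 holds another. The NRF1 core GCATGCGC stood in 10.96% of the 73 member promoters, 5.44% of those of tested genes and 2.71% of all 32851. The ETS motif CCGGAAG, read by GABP, stood in 32.9%, 18.6% and 8.86%. The YY1 motif AAGATGGC stood in 16.4%, 4.83% and 2.75%, and the SP1 motif GGGCGG in 52.1%, 64.0% and 35.7%. A match describes the letters and is not a bound site. Some genes of these factors are given here. Nrf1 was at 19.1, 17.5 and 15.2 FPKM with PBS and 21.2, 21 and 14.9 FPKM on day 14. Gabpa was at 4.96, 5.1 and 5.1 FPKM and 3.19, 4.69 and 4.6 FPKM, and Yy1 at 6.54, 6.35 and 3.76 FPKM and 5.35, 6.95 and 8.05 FPKM. None of these was called against PBS. Of the other GABP subunit genes, Gabpb1 was not called. Gabpb2 was not called against PBS (-0.46, adjusted p = 0.074, limma) and was called lower against day 9 (-0.66, adjusted p = 0.0268, limma). The 250 bases before the start are given for Mrps14 and Mrps26, which rose, and for Mrps2, which fell, to set the 2 directions side by side, all on the plus strand with motifs in capitals:
Mrps14 (chr1:160194965-160195214): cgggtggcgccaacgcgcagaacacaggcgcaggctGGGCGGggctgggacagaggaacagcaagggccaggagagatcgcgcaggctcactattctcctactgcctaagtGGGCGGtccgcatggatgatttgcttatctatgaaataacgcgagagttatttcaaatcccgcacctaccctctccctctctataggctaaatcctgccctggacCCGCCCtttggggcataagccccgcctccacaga
Mrps26 (chr2:130563507-130563756): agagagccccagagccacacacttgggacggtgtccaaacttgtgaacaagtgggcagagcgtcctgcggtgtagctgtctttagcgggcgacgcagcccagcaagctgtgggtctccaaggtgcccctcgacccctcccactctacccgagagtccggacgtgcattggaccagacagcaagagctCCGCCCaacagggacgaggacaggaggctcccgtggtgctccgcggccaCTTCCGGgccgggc
Mrps2 (chr2:28467816-28468065): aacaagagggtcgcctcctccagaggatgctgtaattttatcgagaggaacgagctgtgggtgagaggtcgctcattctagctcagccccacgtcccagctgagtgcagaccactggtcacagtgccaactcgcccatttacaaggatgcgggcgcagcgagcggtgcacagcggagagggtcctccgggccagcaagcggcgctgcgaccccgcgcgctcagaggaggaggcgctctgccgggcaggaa
Those of Mrps14 hold SP1 motifs, those of Mrps26 an ETS and an SP1 motif, and those of Mrps2 none of the 4. These are picked examples, and whether motifs go with the direction of change was not tested. Mrpl47, which rose, was found with none of the 4 motifs. Mrpl49, below PBS in all 3 day 14 libraries, had YY1 and SP1 motifs.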

How the data were processed

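The authors deposited FPKM values, 1 column for each library. Tools listed in the submitters' processing notes are Bowtie 0.12.7 and Cufflinks, and the build listed there is mm9. Per the labels' protocols, RNA with a RIN above 8 was depleted of ribosomal RNA from 5 µg. The annotation and the handling of strand and of multi-mapped reads were not found in the labels. The columns headed as controls were matched to the PBS samples by replicate number. Of 23813 rows, 260 symbols stood on several; of these the row of greatest mean level was used, and every member stood on 1 row. Column totals ran from 572787 to 723288 FPKM. Counts were not used here, so depth is known only relative to 1 library and sets no interval.

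The fit used limma 3.58.1 in R 4.3.3, with its variance trend, on log2(FPKM + 1). It took all 9 libraries and the group as the only term; genes needed 1 FPKM in 3 libraries. It was tested on simulated data. Alternatives were 14 settings and 9 fits that each left out 1 library. Replicate numbers were not used as pairs. Same-numbered libraries correlated between -0.27 and 0.43 in their deviations, and differently numbered ones between -0.52 and 0.46. With 3 libraries per group this cannot settle whether the samples were paired.

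Members were chosen by symbol; named genes were up to 8 large and 6 small subunit calls per direction with the smallest p, the 3 highest and 3 lowest by PBS mean, a set of proteins of known role and the untested members. Others named (the remaining calls, Mrpl16, Mrpl18, Mrpl19, Mrpl41, Mrpl49, Mrps35 and divergent partners) were chosen after their values were seen. Members and lists were chosen with earlier results of these data known. Lengths came from GENCODE M21 (the longest coding transcript), promoters from RefSeq.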

Additional observations from a re-analysis of the deposited data

How the results depend on the processing

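The limits are the small groups, the shared day 14 libraries and the length trend. Both subunits kept a positive median against PBS in all 22 fits. The assembly and translation factor medians against PBS, 0.16 and 0.08, became -0.05 and -0.06 with the length and GC trend removed. The number of calls varied, and so did the share of all genes tested in each fit that was called. Against PBS that share was 17.1% in the main fit, 5.23% with all genes above 0 FPKM and 4.80% with only the groups compared. It was 0% with the term for Y-linked transcripts and 4.60% with the length and GC trend removed. Against day 9 the main fit had 15.7%, and the same settings without the Y-linked term had 4.63%, 2.68% and 3.64%. Against PBS, calls in both subunits, in the large and in the small subunit went from 24, 12 and 12 to 12, 5 and 7 with all genes above 0 FPKM tested, to 6, 2 and 4 with only the groups compared, to 0, 0 and 0 with a term for Y-linked transcripts (32 members then had an unadjusted p under 0.05 by limma), to 7, 4 and 3 with the length and GC trend removed, and to 1, 0 and 1 at an adjusted p under 0.01. Against day 9 they went from 22, 12 and 10 to 9, 5 and 4 with all genes above 0 FPKM, to 2, 0 and 2 with only the groups compared, to 8, 4 and 4 without both libraries with markers of other kidney cells, to 7, 3 and 4 with the length and GC trend removed, to 34, 17 and 17 at an adjusted p under 0.10 and to 1, 0 and 1 under 0.01. A stricter threshold lowers the count by construction. For the other settings the cause was not tested, and leaving out libraries did not always lower the count. Without both libraries with markers of other kidney cells there were 28 calls against PBS. Leaving out 1 library at a time gave 0 to 25 calls against PBS (large 0 to 13, small 0 to 12) and 3 to 25 against day 9 (large 1 to 15, small 2 to 10). With a replicate block, calls were 19 (10 large, 9 small) in both comparisons, though whether the numbers pair the samples is not known. Median-of-ratios scaling gave 30 calls in both comparisons. The day 9 comparison with PBS had 0 calls in every setting.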

Other observations

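A few members had values in 1 day 14 library far from the other 2, which their means hide. In day 14 replicate 1, the library with markers of many kidney cells, Mrpl12 was at 6.45 FPKM against 0.914 and 0.164 FPKM in replicates 2 and 3, Mrps16 at 12.5 against 2.09 and 1.86 FPKM, Mrpl18 at 114 against 28.5 and 19.5 FPKM, and Mrps5 at 17.5 against 4.61 and 3.93 FPKM. Mrpl16 went the other way there, at 9.17 against 39.2 and 39.8 FPKM. Mrpl42 was at 1478 FPKM in replicate 3, 403 FPKM in replicate 2 and 174 FPKM in replicate 1, where the PBS libraries held 607 to 756 FPKM. Mrps30 varied among the PBS libraries themselves, from 68.2 to 169 FPKM. Mrpl33, in contrast, was lowest of its group in day 14 replicate 1. The part of the other cells in these values was not tested.

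The median coefficient of variation of the members over the 3 PBS libraries was 13.8%. PBS replicate 1 was the highest of its group in 39 of 70 tested members and PBS replicate 2 in 5, so the PBS libraries also differed as a whole.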
